A study of Mus musculus with 2 samples.

Results

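USF1 peaks that sat on the palindromic E-box at CpG-rich promoters read in a single direction were collected from CH12.LX cells. There were 1290 such peaks among the 10624 peaks of the mm9 list. A peak was taken when its summit lay within 1 kb of the 5′ end of a protein-coding transcript (Gencode vM1) and the core CACGTG, the canonical E-box, occurred within 50 bp of the summit. The 500 bp on each side of the summit also had to hold CpG dinucleotides at 0.45 or more of the number expected from base composition. Peaks with 5′ ends of different protein-coding genes on opposite strands within 1 kb were left out. Position, E-box and CpG content were therefore fixed by the choice, whereas signal, copy number, flanking bases, place along the promoter and gene identity were not. The 1290 member peaks lay nearest to 1254 different genes, 35 of which had more than 1 member.

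CH12.LX is an immortalized B-cell lymphoma line from a female mouse of strain B10.H-2aH-4bp/Wts. Chromatin was immunoprecipitated with an antibody to USF1 and sequenced in 2 biological replicates of 1 group, with no treatment or genotype contrast. Both replicates come from the same line and donor, so their spread says nothing about other B cells. Control libraries were not analysed here, and read numbers are not stated in the labels or readme files, so the depth is unknown.

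USF1 is a basic helix-loop-helix leucine zipper protein that binds the E-box as a homodimer or together with USF2. The same core is recognised by other proteins of this class, among them the MYC and MAX family, the MiT family that includes TFEB, and the clock factors. CpG-rich promoters belong mostly to genes active in many tissues, usually lack a TATA box, and tend to be unmethylated, while methylation of the central CpG of the E-box is known to weaken binding by these proteins.

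The E-box letters of the 5 strongest members and of 4 of the 5 weakest are shown first, because the bases beside the shared core differed between these ends of the range. Each stretch runs 5′ to 3′ along the gene (NCBIM37, which is mm9), with the core of the copy nearest the summit in capitals. Signal is the authors' own value for each peak, on a scale that is not given.
Slc36a1 (chr11:55017829-55017854, plus strand): gagccagcatCACGTGacagggcccg
Ube2b (chr11:51814349-51814374, minus strand): gtcacaggcaCACGTGgttctagata
Zfp207 (chr11:80196745-80196770, plus strand): aagcctgcgtCACGTGacccgcacag
Eif4g1 (chr16:20672805-20672830, plus strand): ctgcgccggtCACGTGgggcgctggc
Cdk4 (chr10:126500463-126500488, plus strand): gtcaaggggtCACGTGggatagcaac
Anxa7 (chr14:21299261-21299286, minus strand): gagatatagaCACGTGttaaaactag
Grk6 (chr13:55547233-55547258, plus strand): gaaggtgcccCACGTGccccaggccc
Nhp2l1 (chr15:81877608-81877633, minus strand): atgagcgcccCACGTGggatggtgaa
Zfp296 (chr7:20162927-20162952, plus strand): gcgcgcccagCACGTGtgccccgcgg
The first 5 belong to members with signals from 4453 to 5697, and 4 of them have a T directly before the core, which on the other strand reads as an A directly after it. Ube2b is the exception at the copy nearest its summit, though a TCACGTGA copy at an offset of -32 also lay inside an mm9 peak. The last 4 have signals from 29.2 to 29.5 and carry neither base in that place. The fifth weak member, at Slc38a3 with a signal of 29.6, has the form GCACGTGA, so single members did not all follow the pattern.

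Members were strong peaks. Their signal ran from 29.2 to 5697 with a median of 282 and quartiles of 83.9 and 1028, against a median of 62.9 over all peaks. Of the 1290 members, 751 (58.2%, 95% Wilson interval 55.5 to 60.9) fell in the strongest 20% of the whole list, a cut that by construction takes 20.0% of all peaks. Peaks without a canonical E-box at the same kind of promoter had a median signal of 50.9, and 172 of 957 fell in the strongest 20%. The odds were 6.36 times higher for members (5.21 to 7.76; Fisher's exact test, two-sided, adjusted p = 1.5e-84). At CpG-poor promoters the same E-box came with a median signal of 84.9, and 57 of 269 peaks (21.2%) were in the strongest 20%. That was lower than in members, by 37.0 percentage points (odds ratio 5.18, 3.79 to 7.08; Fisher's exact test, adjusted p = 3.6e-28). At CpG-rich bidirectional promoters, which have a gene on each strand, the median was 310.3 and 100 of 180 peaks (55.6%) were in the strongest 20%. No difference from members was found there (odds ratio 1.11, 0.814 to 1.53; Fisher's exact test, adjusted p = 0.774). These p-values belong to a family of 50 share comparisons with Benjamini-Hochberg adjustment, 18 of which passed the threshold of 0.05. Peaks are not replicates, so the tests speak of this list only, and intervals cover counting error only.

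**Figure D1:**
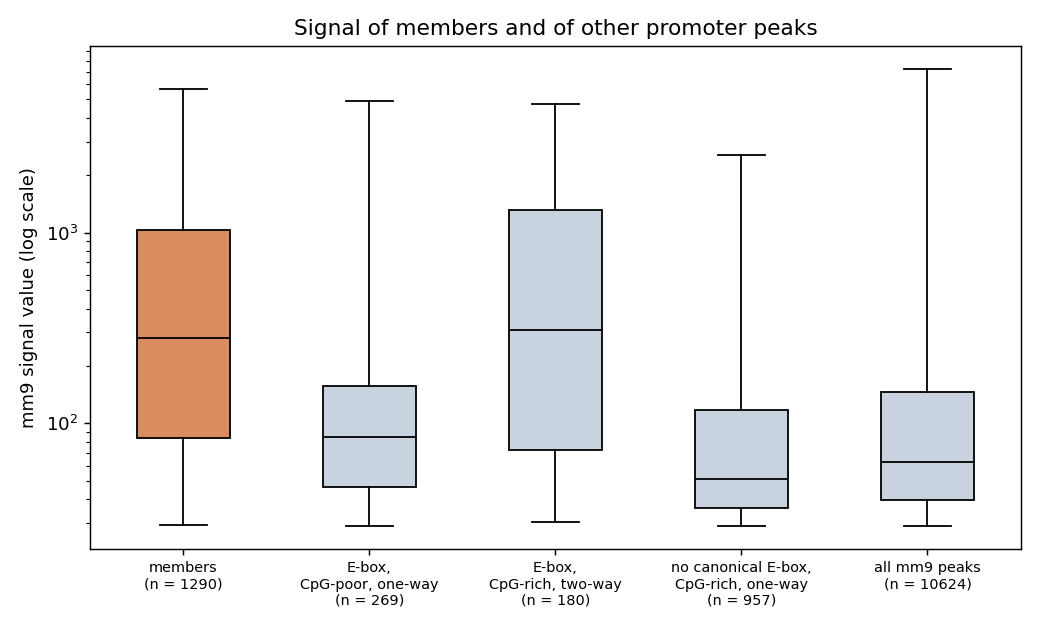
Signal value of the mm9 peaks on a log scale for members and 3 other promoter classes that differ from them in 1 property, beside all peaks. Boxes span the quartiles, the line is the median and the whiskers reach the lowest and highest peak; members (median 282) and bidirectional promoters (310.3) lie above CpG-poor promoters (84.9) and promoters without the canonical E-box (50.9).

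The strongest members served genes of several kinds. The first was at Slc36a1, a lysosomal amino acid transporter, with a signal of 5697. Ube2b, a ubiquitin-conjugating enzyme of DNA repair, followed at 5497, and Zfp207, a spindle assembly protein, at 4589. Eif4g1, the scaffold of the cap-binding complex in translation, stood at 4483 and Cdk4, the G1 cyclin-dependent kinase, at 4453. Further down were Dvl2 of the Wnt pathway (4446), Lamp1, a major lysosomal membrane protein (4301), Aldh3a2, a fatty aldehyde dehydrogenase (4252), Nagpa, which uncovers the mannose phosphate tag of lysosomal enzymes (4243), and Sgol1, which protects centromeric cohesion (4211). Vps33a and Vps11, shared subunits of the tethering complexes of endosomes, reached 4142 and 3469. The other genes of the 25 strongest members were Lztfl1, Rpl19, Rad9, Med13, Atp6v0b, Sppl3, Rcan1, Sec23ip, D6Wsu116e, Wdr81, Mfsd1, Ubxn1 and Ndel1, with signals from 3477 to 4041. The weakest 5, from 29.2 to 29.6, were at Slc38a3, Anxa7, Grk6, Nhp2l1 and Zfp296.

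Both replicates showed the strongest members. In mm10, where each replicate has its own list, the strongest region within 1 kb of the gene's RefSeq 5′ end was taken. Slc36a1 had a signal of 302 in replicate 1 and 279 in replicate 2. For Eif4g1 the values were 318 and 328, and for Cdk4 they were 280.3 and 283. Vps33a stood at 297 and 303, and Aldh3a2 at 321 and 319.7, so these genes differed little between replicates. Lamp1, which ranked 11 by signal in the whole mm9 list, was lower, at 187 and 196. Of the weakest members, Anxa7 had 18.6 and 21.7, Nhp2l1 had 12.6 and 9.91, and Slc38a3 had no region in either replicate. The mm10 and mm9 values are on different scales and were not compared as levels.

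Across the members the same order was found in each replicate. Of the 1254 genes, 1242 could be joined to mm10, and 1181 of these (95.1%, 93.7 to 96.2) had a region in both replicates, against 23.4% of all 20336 joined protein-coding genes. The median signal was 101 in replicate 1, with a range of 7.39 to 321, and 114 in replicate 2, with a range of 6.51 to 328. The log2 ratio of replicate 2 over replicate 1 had a median of 0.16 and an SD of 0.37 across genes. It passed 2-fold at 32 genes (2.71%), of which 24 were higher in replicate 2 and 8 in replicate 1. Among the 3570 other protein-coding genes with a region in both replicates, whose median signals were 13.9 and 15.7, it did so at 241 (6.75%). Spearman's rho across member genes was 0.978 between replicates, where it was 0.800 across the other genes, and 0.967 and 0.969 between each replicate and the mm9 list. This is a description of genes that share their libraries, and with 2 replicates of 1 group no test over samples was possible. The mm9 list was made from the same 2 replicates, so it is not a separate measurement.

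**Figure D2:**
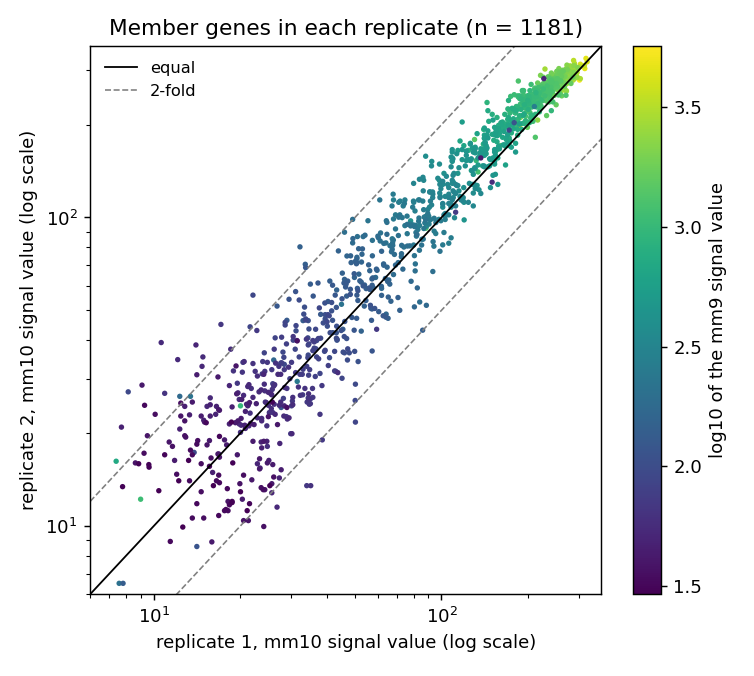
Signal of 1181 member genes in replicate 1 (x axis) and replicate 2 (y axis) in mm10, both on log scales, with colour giving the log10 of the mm9 signal. Points follow the line of equality, and 32 genes lie beyond the dashed 2-fold lines, mostly at low signal.

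Most member genes were also in the authors' thresholded mm10 lists. An optimal summit lay within 1 kb of 1097 of 1242 member genes (88.3%, 86.4 to 90.0), and of 13.0% of all protein-coding genes. A conservative summit lay there for 1076 (86.6%, 84.6 to 88.4), against 12.2% of all. Both shares follow in part from the way members were chosen, since all lists come from the same libraries. Among genes of members in the strongest 20%, 708 of 736 (96.2%) had an optimal summit, and among the others 389 of 506 (76.9%).

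The E-box of a member lay close to the start of transcription. The centre of the core was a median of 37 bp upstream of the nearest 5′ end, at an offset of -37 with quartiles of -153 and 37. It lay upstream in 839 members (65.0%). In 563 members (43.6%, 41.0 to 46.4) it lay between 100 bp upstream and 49 bp downstream, a stretch called start-proximal below. A total of 582 members (45.1%) had it within 200 bp upstream, against 60 of 269 (22.3%) at CpG-poor promoters (odds ratio 2.86, 2.11 to 3.89; Fisher's exact test, adjusted p = 1.4e-11). This difference rested on peaks farther out. When only peaks within 500 bp of a 5′ end were kept it was 5.18 percentage points (Fisher's exact test, adjusted p = 0.696), and within 250 bp it was -2.53 points (Fisher's exact test, adjusted p = 1). Bidirectional promoters had 99 of 180 (55%) within 200 bp upstream, which was more than members (adjusted p = 0.0373 by Fisher's exact test), and 7 of 11 alternative settings lost that call.

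Signal was highest where the E-box stood just upstream of the start. Members with the core in the last 50 bp before the 5′ end had a median of 831, and 191 of 242 (78.9%, 73.4 to 83.6) were in the strongest 20%. The medians on either side were 574 for offsets of -100 to -51 and 578 for offsets of 0 to 49. At 50 to 99 bp downstream the median was 176, and at 500 to 1000 bp downstream it was 86.5, with 26 of 94 members (27.7%) in the strongest 20%. Farther upstream it was 299 at -200 to -101, 179 at -500 to -201 and 208 at -1000 to -501. The median was thus lower downstream than upstream in each matched distance bin beyond 50 bp from the start. The same shape appeared in each replicate in mm10. Genes with the core at -50 to -1 had medians of 171 and 205 in replicates 1 and 2, and those at 500 to 1000 had 25.4 and 25.6. Start-proximal genes exceeded the other member genes by 1.53 log2 units in replicate 1 and 1.62 in replicate 2 (mean 1.58 ± 0.06, SD, n = 2). Joined genes with no region in a replicate counted as 0 in these medians.

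**Figure D3:**
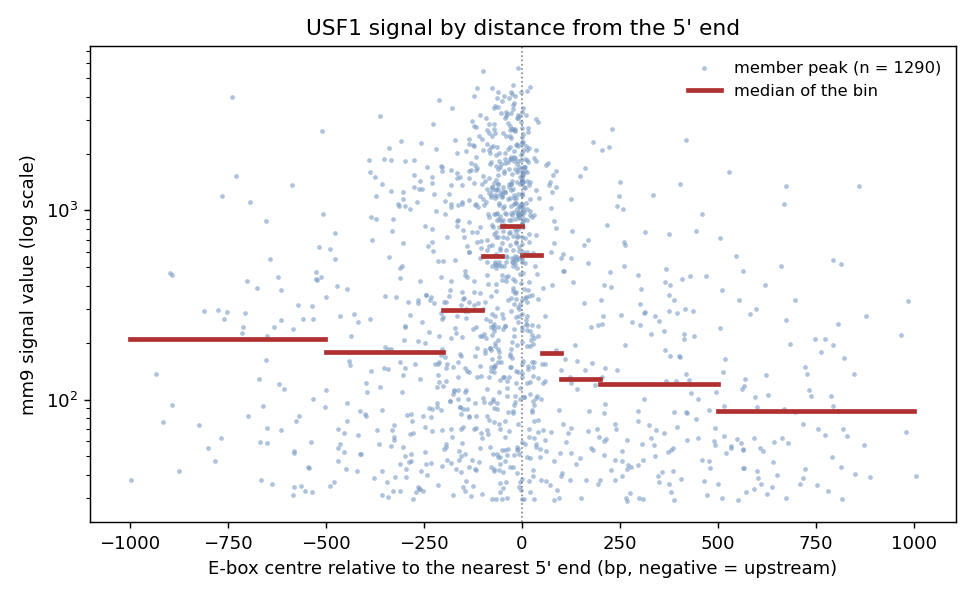
Signal of each of the 1290 members in mm9 (log scale) against the offset of its E-box centre from the nearest 5′ end in bp, with the median of each distance bin as a red bar. The bin just upstream of the start has the highest median, 831, and the bin from 500 to 1000 bp downstream the lowest, 86.5.

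Some members far from an annotated 5′ end were nevertheless strong; they were picked out after their values were seen. Med13, a subunit of the kinase module of Mediator, had its E-box at -740 and a signal of 3974, with 293 in replicate 1 and 286 in replicate 2. Dyrk1a, a protein kinase, had it at -510 with a signal of 2638 and replicate values of 261 and 291. Cul3, the scaffold of a ubiquitin ligase, had it at -586 (signal 1363), and Ypel5 at 860 (signal 1355). Whether unannotated start sites lie nearer to these copies was not tested.

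Bases beside the core went with signal. An A directly after the core or, equivalently, a T before it marked the forms with high signal. TCACGTGA, which has both, was the form nearest the summit in 229 members (17.8%, 15.8 to 19.9), but made up 13 of 333 canonical copies (3.90%) found 250 to 1000 bp from the same summits (odds ratio 5.31, a difference of 13.8 percentage points; Fisher's exact test, adjusted p = 1.6e-11). CCACGTGA, read on either strand, was nearest in 350 members (27.1%) and made up 43 of 333 copies (12.9%) away from the summits (odds ratio 2.51, 1.78 to 3.54; Fisher's exact test, adjusted p = 1.1e-07). These comparisons did not match distance to the 5′ end, and both forms were more frequent near it. Occupied or not, 167 of 1023 start-proximal copies at such promoters were TCACGTGA and 257 CCACGTGA. Of all 4338 copies within 1 kb, 347 and 701 were. How much of either excess goes with position was not tested. Against the E-boxes of peaks at CpG-poor promoters, no difference was found for either form. TCACGTGA made up 21.2% there (odds ratio 0.803, 0.580 to 1.11; Fisher's exact test, adjusted p = 0.404) and CCACGTGA 24.9% (odds ratio 1.12, 0.830 to 1.52; Fisher's exact test, adjusted p = 0.774).

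The forms differed widely in signal. Members with TCACGTGA had a median of 1085, and 194 of 229 (84.7%) were in the strongest 20%. CCACGTGA gave a median of 620.3, GCACGTGA 454 and ACACGTGA 334. Forms without that A or T were lower, with 123 for CCACGTGG, 85.3 for ACACGTGG, 71.1 for CCACGTGC, 70.2 for ACACGTGT, 69.0 for ACACGTGC and 63.1 for GCACGTGC. The 4 forms with that base also led among start-proximal members, where TCACGTGA had a median of 1419 (n = 122) and CCACGTGC 113 (n = 52). In mm10 the genes with TCACGTGA had medians of 206 in replicate 1 and 232 in replicate 2, and those with CCACGTGC had 31.3 and 33.8. The strand on which an asymmetric form was read made little difference to its frequency. CCACGTGA read along the gene in 164 members and against it in 186, which is 46.9% along the gene (41.7 to 52.1). ACACGTGA was the form farthest from balance, read along the gene in 40 of its 106 members (37.7%, 29.1 to 47.2).

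Over 10 bases, the most frequent sequence was CCCACGTGAC, in 99 members with a median signal of 849.7. GTCACGTGAC, a palindrome throughout, came next with 90 members and a median of 1386, as at Zfp207 above. ATCACGTGAC, the sequence of Slc36a1, was in 38 members with a median of 1441. CCCACGTGGC was in 37 members with a median of 123.

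A second copy of the E-box was rare, and members that had one were stronger. A total of 102 members (7.91%, 6.56 to 9.51) held at least 2 copies within 50 bp of the summit, against 4 of 269 (1.49%) at CpG-poor promoters (odds ratio 5.69, 2.08 to 15.6; Fisher's exact test, adjusted p = 1.2e-04). The call was lost when only peaks within 250 bp of a 5′ end were kept (Fisher's exact test, adjusted p = 0.209) and with a CpG minimum of 0.6 (Fisher's exact test, adjusted p = 0.0555). The core itself holds a CpG, which the choice of members favours. At bidirectional promoters the share was 7.22% (odds ratio 1.10, 0.606 to 2.01; Fisher's exact test, adjusted p = 0.980). The 1188 members with 1 copy had a median signal of 264 and the 96 with 2 copies a median of 1325. In those 96 the starts of the copies were 8 to 83 bp apart, with a median of 28.0 bp, and in 84 they were under 50 bp apart.

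Members with 3 or more copies numbered 6, all of them in the strongest 20%. They were at Dvl2, Rad9 (a subunit of the DNA damage checkpoint clamp), Mfsd1 (a lysosomal transporter), Bax (an effector of apoptosis), Zmym6 and Ptprs (a receptor tyrosine phosphatase). Their signals were 4446, 4014, 3558, 3029, 2867 and 1397. Of these, the stretches from 8 bases before the first core to 8 bases after the last are shown for 3 promoters to give the spacing of the copies, with each core in capitals.
Dvl2 (chr11:69813963-69814074, plus strand): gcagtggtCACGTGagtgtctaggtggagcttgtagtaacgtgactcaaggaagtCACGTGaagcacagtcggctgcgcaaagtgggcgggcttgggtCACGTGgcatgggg
Rad9 (chr19:4201683-4201772, minus strand): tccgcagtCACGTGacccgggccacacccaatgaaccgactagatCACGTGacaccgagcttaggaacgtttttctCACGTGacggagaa
Mfsd1 (chr3:67386596-67386685, plus strand): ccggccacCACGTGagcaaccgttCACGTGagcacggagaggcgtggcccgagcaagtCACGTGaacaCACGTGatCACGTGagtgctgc
Mfsd1 packed 5 copies into 90 bp, and Rad9 placed all 3 of its copies in the TCACGTGA form. In mm10 the signals were 279.8 and 299 for Dvl2, 259 and 268 for Rad9, and 280.4 and 290.2 for Mfsd1 in replicates 1 and 2.

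Members are the bound part of a larger set of E-boxes, so occupancy was counted over all copies. Near CpG-rich promoters read in a single direction, 4338 copies of CACGTG lay within 1 kb of a 5′ end, and 1398 of them (32.2%, 30.9 to 33.6) had an mm9 summit within 50 bp. The share over all 9758 copies at promoters of any kind was 19.2%. At CpG-poor promoters it was 277 of 4867 (5.69%, 5.07 to 6.38), and at CpG-rich bidirectional promoters 192 of 476 (40.3%, 36.0 to 44.8). Distance mattered at CpG-rich promoters. Between 100 bp upstream and 49 bp downstream, 620 of 1023 copies (60.6%, 57.6 to 63.6) were occupied, against 48 of 397 (12.1%, 9.24 to 15.7) at CpG-poor promoters. The share dropped from 58.0% at offsets of 0 to 49 to 26.8% at 50 to 99 and to 104 of 745 copies at 500 to 1000. It was 46.5% at -200 to -101 and 19.1% at -1000 to -501.

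**Figure D4:**
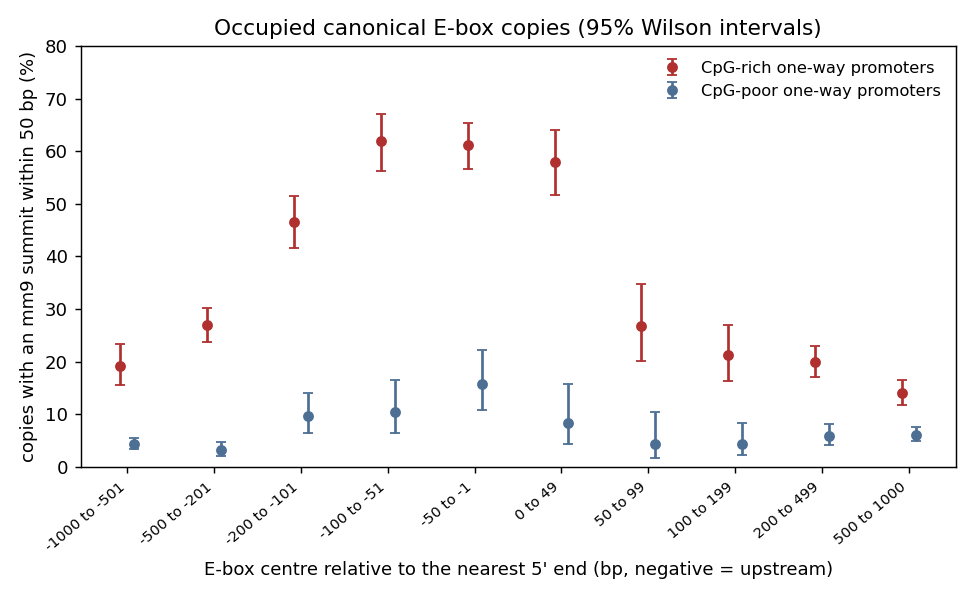
Percentage of canonical E-box copies with an mm9 summit within 50 bp, by offset from the nearest 5′ end in bp, at CpG-rich (red) and CpG-poor (blue) promoters read in a single direction, with 95% Wilson intervals. Occupancy at CpG-rich promoters reaches 61.9% at -100 to -51 and is lowest in the farthest downstream bin, and the CpG-poor values stay between 3.16% and 15.7%.

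Flanking bases and CpG content each went with occupancy. Start-proximal TCACGTGA copies were occupied in 141 of 167 cases (84.4%, 78.2 to 89.1), CCACGTGA in 72.8% and GCACGTGA in 62.0%. CCACGTGG, at 56.8%, stood above ACACGTGA, at 53.2%. The other forms were CCACGTGC at 49.1%, ACACGTGG at 47.9%, ACACGTGC at 34.1%, ACACGTGT at 28.6% and GCACGTGC at 26.5% (17.4 to 38.0). Away from the start TCACGTGA was still occupied in 118 of 180 cases (65.6%) and GCACGTGC in 20 of 247 (8.10%). Over 10 bases, 97 of 111 copies of GTCACGTGAC (87.4%) and 40 of 87 copies of CCCACGTGGC (46.0%) were occupied. By CpG content, occupancy was 18.2% where the observed over expected value was 0.45 to 0.6 and 46.7% where it was 0.9 or more. Among start-proximal copies those shares were 44.9% (37.9 to 52.1) and 69.6% (61.4 to 76.8). Within members, median signal went from 175 in the 258 members of lowest CpG content to 499 in the 258 of highest. These are descriptions with no test, since occupancy is what made a copy a member.

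The peaks nearest the CpG limit of 0.45 varied in signal. Just above it lay Mettl2 (0.4505, signal 34.3), Fkbp11 (0.4507, signal 103) and Slc38a7 (0.4513, signal 2595). Just below it lay Prune2 (0.4498, signal 129), Got1 (0.4494, signal 54.4) and Tnfrsf8 (0.4492, signal 81.1).

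Other promoter motifs lay beside the E-box. They were searched on both strands within 50 bp of the summit as exact strings. The GC box GGGCGG, read by SP and KLF factors, was in 482 members (37.4%), in 12.8% of windows of the same length 500 bp to each side, and in 13.2% of all mm9 peaks. It was in 11.5% of E-box peaks at CpG-poor promoters (odds ratio 4.58, 3.10 to 6.77; Fisher's exact test, adjusted p = 3.0e-17), but its letters hold a CpG, which the choice of members favours. Peaks without a canonical E-box had it slightly more often, in 42.7% (Fisher's exact test, adjusted p = 0.0312). That last call was lost under 7 of 10 alternative settings. Members with a GC box had a median signal of 479.8 and those without 208; among start-proximal members the medians were closer, at 759.6 and 556.

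The CCAAT box, read by NF-Y, was in 209 members (16.2%), in 10.5% of side windows and in 17.0% of all peaks. It was more frequent, at 26.6%, in peaks without a canonical E-box (odds ratio of members 0.532, 0.433 to 0.654; Fisher's exact test, adjusted p = 1.6e-08). No difference from CpG-poor promoters was found (14.1%, odds ratio 1.18, 0.809 to 1.71; Fisher's exact test, adjusted p = 0.746). Members with it had a median signal of 559, and those without it 249.7; among start-proximal members these were 1011 and 603.

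The ETS site CCGGAAG was in 104 members (8.06%), in 1.82% of side windows and in 3.39% of all peaks. Its share was 1.86% at CpG-poor promoters (odds ratio 4.63, 1.87 to 11.5; Fisher's exact test, adjusted p = 2.9e-04), though this string too holds a CpG. It was more frequent, at 11.3%, in CpG-rich peaks without a canonical E-box (odds ratio of members 0.689, 0.519 to 0.915; Fisher's exact test, adjusted p = 0.0312), a call lost under 4 of 10 alternative settings. The E-box variant CACATG, which has CA in place of the central CG, was in 46 members (3.57%), close to the 3.14% of side windows. It was in 35.3% of all peaks, in 21.7% of CpG-rich promoter peaks without a canonical copy (odds ratio 0.133, 0.0955 to 0.186; Fisher's exact test, adjusted p = 8.6e-41) and in 11.2% of E-box peaks at CpG-poor promoters (odds ratio 0.295, 0.182 to 0.476; Fisher's exact test, adjusted p = 1.3e-05). Members were chosen for CACGTG and the class at 21.7% for lacking it, so that difference is not independent of the choice. A TATA box, as TATAAA, was in 17 members (1.32%), in 4.53% of their side windows and in 2.18% of all peaks. At CpG-poor promoters it was in 4.09% of E-box peaks (odds ratio 0.313, 0.145 to 0.677; Fisher's exact test, adjusted p = 0.0159) and in 6.32% of their side windows. This string holds only A and T, and median GC content was 58.8% in members and 49.9% at CpG-poor promoters.

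Rarer motifs were also counted. The NRF1 motif TGCGCA was in 72 members (5.58%), 1.78% of side windows and 2.35% of all peaks. The YY1 site AAGATGG was in 38 members (2.95%), 1.86% of side windows and 2.35% of all peaks. In CpG-rich peaks without a canonical E-box the shares were 8.05% for NRF1 and 3.45% for YY1. At bidirectional promoters they were 6.67% and 2.78%, and none of these differed from members past the threshold. The string CTCGCGAG, part of a motif ascribed to ZBTB33, was in 10 members (0.775%) and in 0.198% of all peaks. All 10 were in the strongest 20%, against 58.2% of all members, with a median signal of 1605. Its share was 1.67% at bidirectional promoters and 0.627% in CpG-rich peaks without a canonical E-box. No difference from members was found for either (Fisher's exact test, adjusted p = 0.413 and 0.926). Of the other strings, TGANTCA (AP-1) was in 2.48% of members, TTCCCGC (E2F) in 2.17%, TGACGTCA (cAMP response element) in 1.40%, GAGGAAGT (PU.1) in 0.853% and the octamer ATTTGCAT in 0.155%, against 7.05%, 0.960%, 0.875%, 1.84% and 1.03% of all peaks. The cAMP response element was more frequent, at 3.34%, in CpG-rich peaks without a canonical E-box (odds ratio of members 0.409, 0.228 to 0.733; Fisher's exact test, adjusted p = 0.00942). The E2F string was in 0 of 269 E-box peaks at CpG-poor promoters, with an interval up to 1.41% (Fisher's exact test, adjusted p = 0.0306), and the NRF1 string in 1.49% of them (odds ratio 3.92, 1.42 to 10.8; Fisher's exact test, adjusted p = 0.0105). The E2F share was 2.61% in CpG-rich peaks without a canonical E-box and 3.89% at bidirectional promoters, with no difference from members found. The ZBTB33, cAMP, E2F and NRF1 strings each hold a CpG. Among start-proximal copies of the E-box, 81.5% of those with an ETS site nearby were occupied (72.4 to 88.1, n = 92) and 58.5% of those without. For the GC box the shares were 71.1% with and 53.5% without, for YY1 they were 82.4% (n = 34) and 59.9%, and for the CCAAT box 65.8% (57.8 to 72.9) and 59.7%. With the E2F string the share was 50% (31.4 to 68.6, n = 24), against 60.9% without. With the AP-1 string it was 50% (29.0 to 71.0, n = 18), against 60.8%. With TATAAA it was 46.2% (23.2 to 70.9, n = 13), against 60.8%. The intervals for the CCAAT box, E2F, AP-1 and TATAAA each cover the share without the string, so no difference was shown for them. For the ZBTB33 string the shares were alike, at 60% (n = 10) and 60.6%. A match is a description of letters, not evidence of a bound factor.

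Strong members with a CCAAT box and a GC box in the same stretch, chosen after their values were seen, show how these elements sat around the core. Each is upstream sequence of 120 bp in NCBIM37 with the E-box core in capitals.
Stx6 (chr1:157005713-157005832, plus strand): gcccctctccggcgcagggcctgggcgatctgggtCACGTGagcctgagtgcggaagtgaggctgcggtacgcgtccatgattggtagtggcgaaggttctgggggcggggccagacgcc
Atxn3 (chr12:103196457-103196576, minus strand): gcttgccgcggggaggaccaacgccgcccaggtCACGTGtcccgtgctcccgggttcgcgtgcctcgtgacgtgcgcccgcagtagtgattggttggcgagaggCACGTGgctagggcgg
Stx6, a membrane fusion protein of the trans-Golgi network, had a signal of 2092 and its core at an offset of -83. Atxn3, a deubiquitinase, had a signal of 2872 and a core at -85.

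Members were counted against 19 gene lists, beside the 1254 of 22219 protein-coding genes (5.64%) that were nearest to a member. The lists were written with earlier results of these data known, so the counts describe and do not test.

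Genes of the lysosome and the endosome had members more often than the 5.64% of all genes. Of the 25 strongest members, 5 were at genes of the 4 lists that follow. The vacuolar ATPase, the proton pump that acidifies lysosomes, had members at 7 of 18 genes (38.9%, 20.3 to 61.4), with signals of 3948 at Atp6v0b, 2087 at Atp6v1c1, 1893 at Atp6v0d1 and 1750.4 at Atp6v1h. In mm10 Atp6v0b had 273 in replicate 1 and 272 in replicate 2, and Atp6v1c1 had 288 and 286. Another 7 of its genes had promoter peaks outside the set, 4 of them at CpG-rich promoters without a canonical copy. Lysosomal membrane and transport genes had members at 9 of 25, all in the strongest 20%, led by Slc36a1, Lamp1, Mcoln1 (a calcium channel, 3169) and Clcn7 (a chloride transporter, 3081). Lysosomal enzymes had members at 9 of 41, with 3185 at Naglu, 1877 at Gaa and 1327 at Hexa, enzymes that degrade heparan sulphate, glycogen and gangliosides. In replicates 1 and 2 Naglu had 290.0 and 316, and Gaa had 245 and 265. Endosome tethering and retromer had members at 4 of 13 genes, which were Vps33a, Vps11, Vps8 (2138) and Vps26a (1085). CpG-rich promoter peaks without a canonical copy were found at 9 further enzyme genes, 5 membrane and transport genes and 2 tethering genes. The median signal of list members was 1750.4 for the pump, 1622 for lysosomal membrane genes, 1212 for lysosomal enzymes and 2804 for tethering genes.

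Control of mTORC1, the kinase complex that senses amino acids at the lysosome, had members at 6 of 18 genes. Rragc, a Rag GTPase, had 2193, Hbxip, a subunit of the Ragulator, had 1527, Tsc1 had 782 and Rheb had 527. In mm10 the values of Rragc were 270.0 and 302. Autophagy had members at 5 of 35, led by Uvrag (1269), Atg5 (1166), Atg14 (860.1) and Atg10 (471).

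Clock genes and genes of E-box binding proteins had members too. Of 20 circadian clock genes, 7 had a member (35%, 18.1 to 56.7), with 1095 at Tef, 1093 at Cry1, 724 at Per1 and 338 at Nr1d2. Cry1, a repressor of the clock, had 197 in replicate 1 and 200.5 in replicate 2. Among bHLH-ZIP factors 5 of 20 had a member, namely Mlx (2692), Max (1082), Mnt (242), Mlxip (146) and, outside the naming rule, Mxd3 (136), all of the MAX and MLX network.

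Growth and metabolism followed. Nucleotide and one-carbon synthesis had members at 8 of 28 genes, led by Shmt1 (1740.4), Nme2 (1334), Atic (1243) and Tyms (409). Nme2 also had a weaker member at another 5′ end, with a signal of 276. In mm10 the gene Nme2 had 88.3 and 92.3 in replicates 1 and 2, where Atic had 223 and 265. Which of its starts the mm10 values belong to was not tested. Translation initiation factors had members at 10 of 58, all 10 in the strongest 20%, with Eif4g1 followed by Eif1 (1339.6), Eif4a1 (1226) and Eif4b (1208). Cytosolic ribosomal proteins had members at 12 of 79, but 3 of these were in the strongest 20%; Rpl19 (4037) and Rpl23 (2949.5) stood far above Rpl34 (213) and Rplp2 (169). Haem, iron and redox genes had 7 of 26, led by Hmox1 (2214), Gpx1 (1225), Fth1 (284) and Alad (104). Lipid and sterol synthesis had 5 of 23, led by Insig1 (1515), Sc5d (1068), Scap (212) and Fasn (182). Endoplasmic reticulum chaperones had 4 of 25, namely Calr (2125), Canx (404), Manf (239) and Pdia4 (41.7). Replication and cell cycle had 3 of 30, namely Cdk4, Mcm2 (1409) and E2f1 (335). The interval of that share (10%, 3.46 to 25.6) covers the 5.64% of all genes.

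A few lists were at or near the level of all genes. Mitochondrial ribosomal proteins had members at 3 of 76 (3.95%), which were Mrpl36 (959), Mrpl23 (381) and Mrpl2 (277). The proteasome had 2 of 39, Psmd9 (724) and Psmb3 (683). B-cell identity genes had 2 of 27 (7.41%, 2.06 to 23.4), Bcl6 (899.7), a repressor of germinal centre B cells, and Irf8 (42.0). None of the B-cell markers Cd79a, Cd79b, Ms4a1, Pax5, Ebf1 and Blnk was nearest to a member. Another 9 B-cell genes had promoter peaks outside the set, 4 of them on a canonical E-box at a CpG-poor promoter. Of 24 liver and neuron markers, 0 had a member, with an interval reaching 13.8%.

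**Figure D5:**
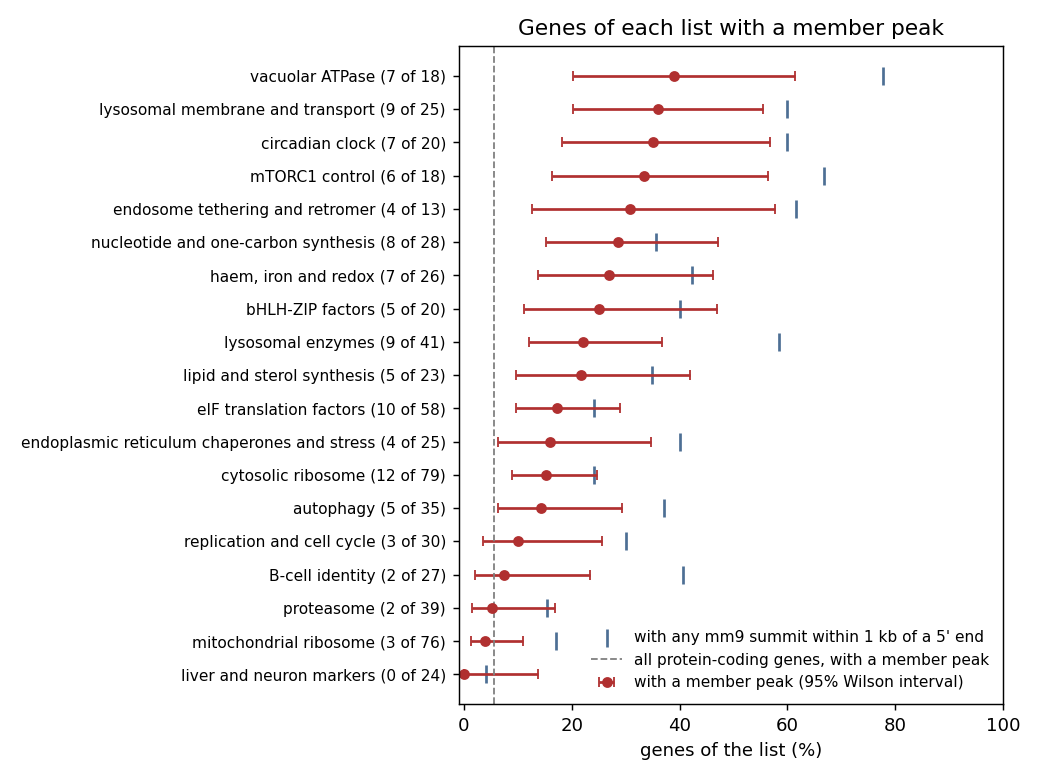
Percentage of each of 19 gene lists nearest to a member (red, with 95% Wilson intervals) and with any mm9 summit within 1 kb of a 5′ end (blue marks), beside the 5.64% of all protein-coding genes with a member (dashed line). The vacuolar ATPase has the highest share, 38.9%, and mitochondrial ribosomal proteins, the proteasome and the liver and neuron markers have the lowest.

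Members lay on 21 chromosomes, with 150 on chromosome 11. That is 11.6% of the members, beside 11.2% of all mm9 peaks and 7.42% of protein-coding genes. Their median signal per chromosome, leaving out Y, ran from 137 on chromosome 14 to 602 on chromosome 17, and chromosome 11 stood at 372. Of the 25 strongest, 9 were on chromosome 11, which held 13.2% of the strongest 20% of all peaks. A single member lay on Y, at Uty with a signal of 377, although the line is labelled female, and the mm10 lists used here held 0 regions on Y.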

How the data were processed

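USF1 ChIP-seq was analysed from the authors' deposited region lists in narrowPeak form; per the deposited readme files, the mm9 list was made from both replicates' mm9 alignments, each replicate has a relaxed mm10 list of peaks and background, and the optimal and conservative mm10 lists were thresholded by IDR, which compares ranks between lists. The deposited signal value of each region (column 7) was used as it stands. The labels and readme files do not state the peak caller, the aligner, the thresholds, the scale of signal or the read depth. Signal was therefore compared within 1 list at a time, and no interval for depth could be set. The summit is column 2 plus column 10.

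Sequence came from NCBIM37 and 5′ ends from protein-coding transcripts of Gencode vM1, searched with pysam 0.24.0. Members were joined to mm10 by gene, through RefSeq GRCm38.p6 5′ ends, and no coordinate was converted. The strongest region within 1 kb of a gene was its value in each mm10 list. Genes without one counted as 0 in the mm10 medians by E-box position or form. Shares were compared by Fisher's exact test, two-sided (SciPy 1.17.1), adjusted by the Benjamini-Hochberg method over 50 comparisons with a threshold of 0.05. Intervals of shares are 95% Wilson intervals and those of odds ratios are on the log scale; both cover counting error only. The scripts were tested on simulated data. Members, gene lists and motifs were chosen with earlier results of these data known.

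Named genes are those of the 25 strongest members, the 5 weakest, members with 3 or more copies, the 3 peaks on each side of the CpG limit and the 4 strongest members of each list; others are said to have been chosen after their values were seen. A few genes are not reported here. Alternatives changed 1 setting at a time: distance to the 5′ end, E-box window, CpG minimum, distance between divergent genes, the strongest 50% of peaks, midpoint for summit, the mm10 join and each replicate.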

Additional observations from a re-analysis of the deposited data

How the results depend on the processing

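Limits first. Depth is unknown, the 2 replicates are of 1 line, regions share libraries, and the mm10 join is by gene, so a different start site in each build was not tested. No paired analysis was possible because there is only 1 group. The difference in the strongest-fifth share from CpG-poor promoters and from promoters without a canonical E-box, and the excess of both flanking forms over copies away from the summits, kept direction and call under every alternative run. The number of members and of list genes with a member (108) stayed within 1.5 times.

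The other values moved as follows. Keeping 5′ ends within 500 bp put the upstream share of members at 5.18 points above CpG-poor and -5.87 points against bidirectional promoters, occupancy at 38.0%, motif comparisons past the threshold at 7 in place of 11, optimal and conservative shares at 81.2% and 79.1%, and the start-proximal excess at 2.06 log2 units. Within 250 bp these were -2.53 points, 0.177 points, 47.1% and 3 comparisons, and the excess of members with 2 or more copies over CpG-poor was 5.67 points. With 2 kb in mm10 the shares were 90.2% and 88.6% and the excess 1.51, and with the region nearest the 5′ end 1.98. Without each replicate in turn it was 1.53 to 1.62. Genes without a region counted as 0 in this excess, and a narrower join can only add such genes. The value of 2.06 was therefore not independent of the distance setting. An E-box window of 25 or 100 bp gave occupancies of 28.3% and 34.3%. A CpG minimum of 0.6 gave 38.1%, a copy difference of 3.30 points and an upstream difference from bidirectional promoters of -10.2 points; a minimum of 0.35 gave an occupancy of 27.8%. That upstream difference was -7.95 points with divergent genes up to 2 kb apart, -8.60 in the strongest 50% of peaks and -8.90 from peak midpoints, none past the threshold. The strongest 50% of peaks gave an occupancy of 26.4% and 5 motif comparisons past the threshold. Among 390 values of single motif comparisons, 26 lost and 3 gained a call, and none reversed. Where the cause is not the smaller set of peaks, it was not tested.

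Some alternatives were chosen after seeing the data. Counting a copy as occupied when it lay inside a peak gave 35.5%. Without chromosome 11 the upstream difference from bidirectional promoters was -10.3 points and missed the threshold (adjusted p = 0.0565 by Fisher's exact test), with the strongest-fifth calls as before.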

Other observations

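Some promoters that were strong in mm10 had no mm9 summit near their genes. Of 475 optimal mm10 regions with a signal over 400 and a summit within 1 kb of a gene's 5′ end, 19 (4%) had no gene with an mm9 summit within 2 kb of its 5′ end. Whether the mm9 list holds these sites farther from an annotated 5′ end was not tested. Among 26 start-proximal TCACGTGA copies without an mm9 summit within 50 bp, 5 lay inside an mm9 peak and 21 did not. Of the 20 genes of those 21 copies that could be joined to mm10, 5 had an optimal summit and 7 had no region in either replicate. The 5 were Dctn4, a dynactin subunit (273 in replicate 1 and 271 in replicate 2), Atf4, the effector of the integrated stress response (230.3 and 259), Tmem55b, a lysosomal membrane protein (231 and 250.1), Vps26a (181 and 226), which is a member through another copy, and Amdhd2 (72.5 and 98.6). Genes without a region in either replicate included Dlx2, a homeobox factor, and Klf15, a zinc finger factor.

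The reverse was also found. A total of 33 member genes (2.66%, 1.90 to 3.71) had no region of either replicate within 1 kb of the mm10 5′ end, among them Ammecr1l (mm9 signal 1327), Ptp4a3 (1219) and Cyhr1 (1052). Idua, an enzyme of the lysosome, had an mm9 signal of 972 but 20.0 and 24.5 in replicates 1 and 2, and no optimal summit. Whether these genes have other start sites in the mm10 annotation was not tested. The genes named here were chosen after their values were seen.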
